A study of Mus musculus with 4 samples.

Results

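The genes described here encode the conjugating enzymes of the liver, namely the UDP-glucuronosyltransferases (UGT), the glutathione S-transferases (GST) and the sulfotransferases (SULT). They were chosen by symbol, as those beginning with Ugt1, Ugt2, Ugt3, Gsta, Gstm, Gstp, Gstt, Gstk, Gsto, Gstz, Mgst, Sult1, Sult2a, Sult3 or Sult5 and not marked as pseudogenes, whose mean level over the 4 liver libraries was 0.5 FPKM or more. FPKM counts fragments relative to the exon length of a gene and to all mapped fragments of its library. Of the 24346 symbols listed, 60 had such a name, and 45 of them reached the minimum, which were 16 of 20 UGT, 21 of 24 GST and 8 of 16 SULT symbols.

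Livers came from wild-type male C57BL/6 mice that were all fed the NASH diet, a high-fat, high-cholesterol diet with bile salt that induces steatohepatitis, for 3 weeks. The control group received this diet alone (n = 2 libraries), and the 7KC group received it with 7-ketocholesterol (7KC), an oxidized derivative of cholesterol (n = 2 libraries). Neither group stands for a healthy liver, since no library from mice on normal chow was analysed here, and the labels do not say whether a library came from 1 animal or from a pool. P-values therefore measure the spread between these libraries, which may be partly technical. The estimated depth was 13700000 to 17100000 mapped reads per library.

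Conjugation is the second phase of detoxification. UGT enzymes of the endoplasmic reticulum attach glucuronic acid from UDP-glucuronic acid to bilirubin, steroids and drugs, GST enzymes attach glutathione to electrophiles and to products of lipid peroxidation, and SULT enzymes transfer sulfate from the donor PAPS to phenols, steroids and bile acids. The conjugates are water-soluble and leave the hepatocyte through ATP-driven transporters. Many of these genes respond to the sensors AhR, CAR, PXR and Nrf2, and several differ between male and female mouse liver.

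No conjugation gene passed the test in either direction. Values were compared as log2(FPKM + 0.5), and the log2 change is the 7KC mean minus the control mean on this scale. It was tested with limma across all 12299 genes that reached the same minimum, with Benjamini-Hochberg adjustment and a threshold of 0.05 on the adjusted p. Higher calls numbered 0 of 45 members, beside 59 of all tested genes (0.480%), and lower calls numbered 0 of 45, beside 3 of all tested genes (0.0244%). The lowest adjusted p among the members was that of Gsta1, an alpha-class glutathione transferase (limma, adjusted p = 0.0742). At an unadjusted p under 0.05, limma found 7 members higher in the 7KC group (15.6%, against 12.0% of all tested genes) and 6 lower (13.3%, against 5.81%). The higher members were Gsta1, Gstm1, Gstm2, Ugt1a7c, Ugt2b35, Ugt2b37 and Ugt2b38, and the lower ones were Gsta3, Gstm7, Mgst3, Sult1c2, Sult1d1 and Ugt1a5. Ugt1a7c and Ugt2b37 reached the minimum of 0.5 FPKM only through the 7KC group, so their positive differences are partly set by that filter and support nothing. Of the 43 members at the minimum in both groups, 5 were higher at an unadjusted p under 0.05 by limma. The share of all tested genes under the same restriction is not given here, so this count cannot be set against it.

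Without a variance estimate, a gene can also be described by whether both 7KC libraries lay on the same side of both control libraries. That was so upward for 10 of 45 members (22.2%, against 25.1% of all tested genes) and downward for 15 (33.3%, against 27.4%), and the libraries of the other 20 overlapped. Of the 43 members at the minimum in both groups, 8 were higher without overlap, and of the 42 with a mean of at least 1 FPKM, 7 were. The shares of all tested genes under these restrictions are not given here, so these counts have no background to be read against. Libraries numbering 2 in each group allow no exact two-sided permutation p below 0.333. The log2 change of 34 members (75.6%) was within 1.5-fold of no change, against 88.0% of all tested genes. The median log2 change was -0.08 for UGT, -0.05 for GST and -0.46 for SULT members, against -0.03 for all tested genes.

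**Figure D1:**
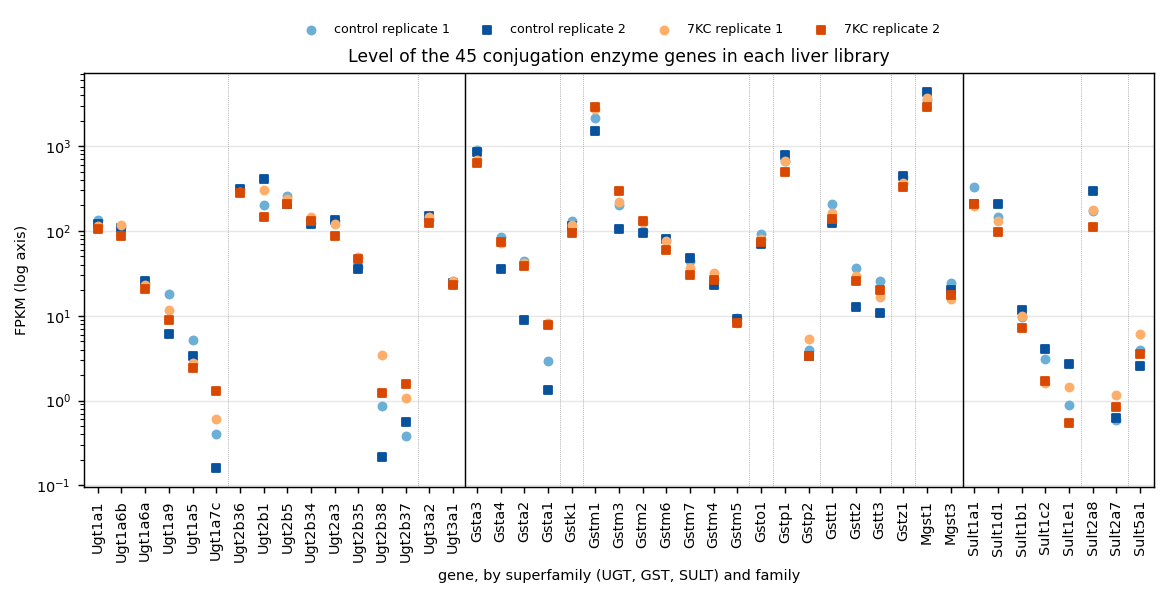
Level of each of the 45 genes in FPKM (log axis) in the 2 control libraries (blue) and the 2 7KC libraries (orange), ordered by superfamily, family and mean level, with circles for replicate 1 and squares for replicate 2. Levels run from 0.159 FPKM (Ugt1a7c, control replicate 2) to 4398 FPKM (Mgst1, control replicate 2), and for most genes the 4 libraries sit close together on this scale.

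Together the 45 genes held 1.6% and 1.66% of the summed FPKM of the control libraries and 1.81% and 1.79% of that of the 7KC libraries. Their summed level was 10944 and 11154 FPKM in the control group and 11233 and 9947 FPKM in the 7KC group, so the groups overlapped. Most of it came from GST genes, which summed to 8746 ± 3.03 FPKM in the control group and 8676 ± 612 FPKM in the 7KC group (mean ± SD, n = 2 each). UGT genes summed to 1601 ± 99.7 and 1437 ± 229 FPKM. The SULT sum was 669.7 and 735 FPKM in the controls and 525 and 429 FPKM with 7KC, without overlap, and the ratio of the means was 0.679. A level of at least 10 FPKM in every library was reached by 31 of the 45 genes.

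The rule for naming genes took the most abundant members and the non-overlapping members of largest change in each superfamily. Members named beyond it, such as Gsta2, Gsta4, Gstm2, Gstm5, Gstm6, Gstt1 to Gstt3, Gstz1, Ugt1a9, Ugt2b34, Ugt2b35 and Sult1e1, were chosen after their values were seen. Levels are compared between genes only in FPKM, which is per length. In whole liver, a lower level of a hepatocyte gene can come from fewer hepatocytes or from less RNA per hepatocyte, and these cannot be told apart here.

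Among the UGT genes, the 4 most abundant were Ugt2b36, Ugt2b1, Ugt2b5 and Ugt3a2. Ugt2b36, a member of the family that conjugates steroids and bile acids, was at 316 and 315 FPKM in control replicates 1 and 2 and at 289 and 282 FPKM in 7KC replicates 1 and 2. Ugt2b5 was at 261 and 208 FPKM in the controls and at 241 and 205 FPKM with 7KC. Ugt3a2, whose family uses sugars other than glucuronic acid, was at 135 and 151 FPKM and at 146 and 124 FPKM. The 7KC libraries of Ugt2b36 lay slightly below the control libraries (log2 change -0.14 ± 0.12, SE), and those of the other two overlapped with them. Of these 4 genes, Ugt2b1 differed most between the libraries of a group. It was at 204 and 414 FPKM in the controls and at 305 and 146 FPKM with 7KC, so its highest and lowest values came from replicate 2 of the control and of the 7KC group.

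Ugt1a1, the bilirubin-conjugating enzyme, was at 135 and 120.0 FPKM in the controls and at 114 and 107 FPKM with 7KC. Both 7KC values were the lower ones (log2 change -0.21 ± 0.12, SE; limma, adjusted p = 0.422). Ugt2a3, which is known to act on bile acids, was at 131 and 135 FPKM in the controls and at 122 and 88.1 FPKM with 7KC, again without overlap (log2 change -0.36 ± 0.18). Ugt1a5 was at 5.24 and 3.39 FPKM in the controls and at 2.79 and 2.41 FPKM with 7KC. Its 7KC libraries were the lower ones (log2 change -0.61 ± 0.22; limma, adjusted p = 0.249).

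The UGT genes with the largest positive changes were among the lowest in level. Ugt2b38 was at 0.862 and 0.214 FPKM in the controls and at 3.49 and 1.24 FPKM with 7KC, which is about 25, 5, 81 and 29 reads. Ugt2b37 was at 0.383 and 0.561 FPKM and at 1.09 and 1.55 FPKM, or about 11, 13, 25 and 36 reads. Both were higher in each 7KC library, and the log2 changes were 1.42 ± 0.50 (limma, adjusted p = 0.240) and 0.90 ± 0.23 (limma, adjusted p = 0.141). Ugt1a7c, at 0.401 and 0.159 FPKM in the controls and at 0.610 and 1.31 FPKM with 7KC, had a log2 change of 0.88 ± 0.32 (limma, adjusted p = 0.255). The control means of Ugt2b37 (0.472 FPKM) and Ugt1a7c (0.280 FPKM) were below the minimum, so a higher 7KC level was a condition of their entry. Among the abundant UGT2 genes the 2 without overlap on the higher side were Ugt2b35, at 37.6 and 36.0 against 49.2 and 47.3 FPKM, and Ugt2b34, at 125 and 122 against 146 and 129.5 FPKM. Their log2 changes were 0.39 ± 0.10 and 0.15 ± 0.12. The remaining UGT genes Ugt1a6a, Ugt1a6b, Ugt1a9 and Ugt3a1 had log2 changes between -0.17 and -0.05.

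The Ugt1a genes stand in 1 locus on chromosome 1 and share their last exons, so their values are not independent of how reads were divided. In windows of 75 bases, the read length of the study, Ugt1a1 shared 57.7% of its transcript with another gene, Ugt1a5 63.6%, Ugt1a7c 69.1% and Ugt1a6a 100% (GENCODE M21 transcripts). Ugt2b38 shared 28.0%, Ugt2b5 30.4% and Ugt2b37 6.37%, and the transcripts of Ugt2b38 and Ugt2b5 were 93.9% identical. A level of Ugt2b38 of a few FPKM thus stood beside a relative at more than 200 FPKM, and whether reads were exchanged was not tested.

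**Figure D2:**
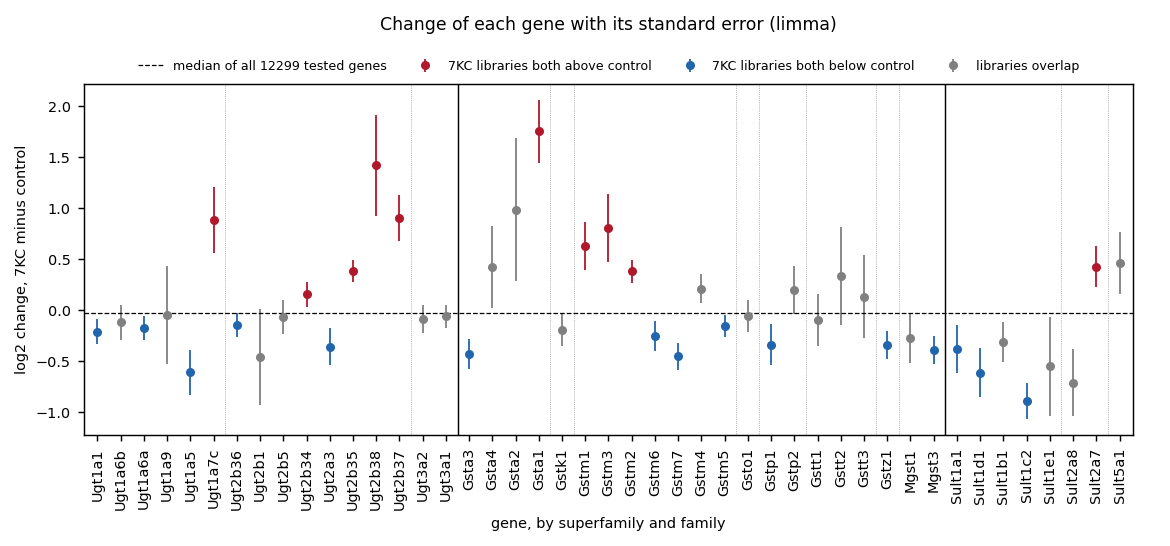
Log2 change of each of the 45 genes (7KC minus control, points) with its standard error from limma (bars), in the same order as the level plot, with the median of all tested genes (-0.03) as a dashed line. Gsta1 at 1.75 and Ugt2b38 at 1.42 are highest, Sult1c2 at -0.89 is lowest, and no gene passed the adjusted threshold.

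Among the 21 GST genes, 4 were higher without overlap (19%, against 25.1% of all tested genes) and 7 lower (33.3%, against 27.4%). Members of the same family lay on both sides. Gstm1, the most abundant mu-class enzyme of mouse liver, was at 2161 and 1510.1 FPKM in the controls and at 2704 and 2890.3 FPKM with 7KC. Gstm3 was at 200.1 and 106 FPKM and at 217 and 299 FPKM, and Gstm2 at 101 and 95.5 FPKM and at 126 and 130.2 FPKM. Each had its highest values in the 7KC libraries, without overlap. The direction was the same under each of the 4 other scalings that were run. Scaling by median ratios, equal sums or hepatocyte markers moved these changes upward, so only quantile normalization could have turned them. The log2 changes were 0.63 ± 0.23 for Gstm1 (limma, adjusted p = 0.260), 0.80 ± 0.33 for Gstm3 (limma, adjusted p = 0.297) and 0.38 ± 0.11 for Gstm2 (limma, adjusted p = 0.184).

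Other mu-class genes lay on the opposite side. Gstm7 was at 44.2 and 47.9 FPKM in the controls and at 36.6 and 30.6 FPKM with 7KC, without overlap, with a log2 change of -0.45 ± 0.13 (limma, adjusted p = 0.188). Gstm6 was at 79.2 and 81.0 FPKM against 75.4 and 59.7 FPKM, and Gstm5 at 9.31 and 9.18 FPKM against 8.21 and 8.26 FPKM. The direction of Gstm7 was the same under all 4 other scalings, whereas Gstm6 turned positive on hepatocyte marker scaling (0.08) and Gstm5 on that and on rescaling to equal sums (0.18 and 0.04). The 7 Gstm genes form a single cluster on mouse chromosome 3, between 107895821 and 108044894 (GENCODE M21, mm10), in which Gstm7 and Gstm6 lie next to Gstm3, Gstm2 and Gstm1. Because Gstm1 made up 83.2% of the summed level, the family sum followed it, with 2622 and 1873 FPKM in the controls and 3198 and 3444 FPKM with 7KC. The means were 2247 ± 530 and 3321 ± 174 FPKM (SD, n = 2), a ratio of 1.48. Of its transcript, Gstm1 shared 14.8% and Gstm3 21.6% with other genes in 75-base windows, and Gstm7 shared none.

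**Figure D3:**
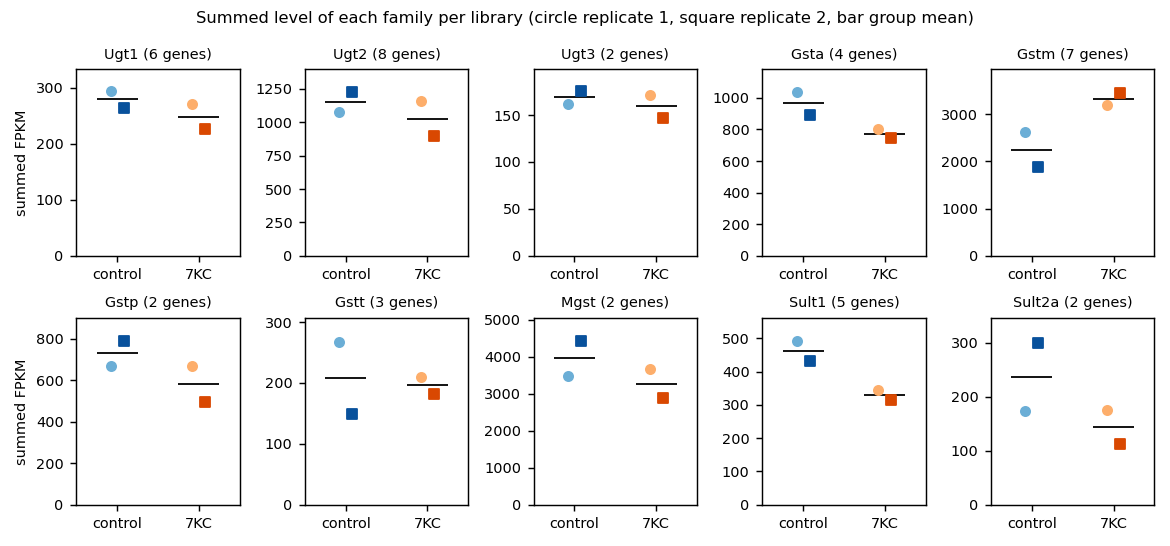
Summed FPKM of each family with at least 2 members in the control and 7KC libraries, each panel with its own axis from 0, circles for replicate 1, squares for replicate 2 and a bar at the group mean. The 7KC points lie above the control points for Gstm (3198 and 3444 against 2622 and 1873 FPKM) and below them for Gsta and Sult1 (344 and 314 against 491 and 433 FPKM).

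The alpha-class genes differed in direction among themselves. Gsta3, the most abundant of them and an enzyme of steroid isomerization and aflatoxin detoxification, was at 907 and 847 FPKM in the controls and at 679 and 625 FPKM with 7KC. Gsta1 was at 2.96 and 1.33 FPKM in the controls and at 8.18 and 7.78 FPKM with 7KC, or about 34, 12, 76 and 72 reads. Both genes separated the groups, in opposite directions, with log2 changes of -0.43 ± 0.15 for Gsta3 (limma, adjusted p = 0.230) and 1.75 ± 0.31 for Gsta1 (limma, adjusted p = 0.0742). These directions were the same under all 4 other scalings, of which only quantile normalization could have turned the positive change of Gsta1. Gsta2 was at 44.1 and 8.86 FPKM in the controls and at 41.5 and 38.5 FPKM with 7KC. Gsta4, which detoxifies the lipid aldehyde 4-hydroxynonenal, was at 85.3 and 35.2 FPKM and at 72.9 and 74.3 FPKM. For both, control replicate 1 and the 7KC libraries were alike and control replicate 2 was the low one.

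The family median of the Gsta genes rested on that library, being 0.70 with all libraries, 1.58 without control replicate 1 and -0.18 without control replicate 2. Gsta1 also shared more sequence with other genes than the other Gsta members did. Of its 75-base windows 86.3% occurred in another gene, most of them in the predicted gene Gm3776 (76.2%), and its transcript was 96.7% identical to that of Gsta2. Gm3776 was at 1.14 and 0.653 FPKM in the controls and at 2.85 and 2.29 FPKM with 7KC. Its values thus lay on the same side as those of Gsta1, and whether the pair can be separated in these data was not tested.

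Upstream sequences are shown for these genes, since Gsta1 and Gsta3 lay on opposite sides and Gsta1 and Gsta2 are near copies, and for Sult1d1, a lower SULT gene described below. Each is the 250 bases before an annotated start site from RefSeq, read 5′ to 3′ on the strand of the gene, with motif matches in capitals.
Gsta1, GRCm38.p6 chr9:78230419-78230668, plus strand: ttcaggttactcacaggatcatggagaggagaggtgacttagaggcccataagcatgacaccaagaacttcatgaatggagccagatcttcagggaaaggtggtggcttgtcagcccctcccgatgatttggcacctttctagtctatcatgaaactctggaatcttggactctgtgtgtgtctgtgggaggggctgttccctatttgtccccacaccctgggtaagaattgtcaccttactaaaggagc
Gsta2, GRCm38.p6 chr9:78347146-78347395, minus strand: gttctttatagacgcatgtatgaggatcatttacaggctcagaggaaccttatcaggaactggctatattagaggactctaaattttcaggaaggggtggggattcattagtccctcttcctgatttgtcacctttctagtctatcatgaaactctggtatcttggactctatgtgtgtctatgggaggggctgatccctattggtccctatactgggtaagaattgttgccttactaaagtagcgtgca
Gsta3, GRCm38.p6 chr1:21240335-21240584, plus strand: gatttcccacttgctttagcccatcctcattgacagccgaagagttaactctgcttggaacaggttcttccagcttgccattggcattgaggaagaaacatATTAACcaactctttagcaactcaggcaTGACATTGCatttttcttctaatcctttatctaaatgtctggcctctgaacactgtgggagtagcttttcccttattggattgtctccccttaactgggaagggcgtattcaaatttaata
Sult1d1, GRCm38.p6 chr5:87569007-87569256, minus strand: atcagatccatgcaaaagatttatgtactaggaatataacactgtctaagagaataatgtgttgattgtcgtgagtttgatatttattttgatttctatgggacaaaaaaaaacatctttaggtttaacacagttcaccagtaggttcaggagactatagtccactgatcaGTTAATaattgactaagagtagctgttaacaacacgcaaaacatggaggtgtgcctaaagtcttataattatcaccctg

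The windows of Gsta1 and Gsta2 were 70.5% identical over their alignment, against 50.7% for Gsta1 and Gsta3. In the Gsta3 window the capitals mark TGACATTGC, a match to the core of the antioxidant response element, the site bound by Nrf2 (TGACNNNGC, either strand), and ATTAAC, the reverse strand of GTTAAT, a half-site of the hepatocyte factor HNF1. They begin 121 and 149 bases before the start site and do not overlap. In the Sult1d1 window the capitals mark GTTAAT, beginning 79 bases before the start site. The window of Sult1c2, the SULT gene with the largest fall, is not shown and held neither motif. RefSeq windows were found for 40 of the 45 members (50 windows). The response element core occurred in 4 of the 50 windows (those of Gsta3, Gstm5, Gstm7 and Mgst1), against 10.2% of 32851 windows of all genes. The HNF1 half-site occurred in 8 of the 50 (Gsta3, Sult1a1, Sult1d1, Ugt1a1, Ugt1a6a, Ugt1a9, Ugt2a3 and Ugt3a1), against 6.43% of all windows. A match is a description of the letters and not a site of binding, and no binding was measured here.

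The remaining cytosolic GST classes had smaller differences. Gstp1, the pi-class enzyme and in mice a male-predominant liver protein, was at 667 and 785 FPKM in the controls and at 665 and 493 FPKM with 7KC. Its 7KC libraries lay below the control libraries by a narrow margin (log2 change -0.34 ± 0.20; limma, adjusted p = 0.432). Gstz1, which acts in tyrosine breakdown as maleylacetoacetate isomerase, was at 433 and 443 FPKM against 367 and 325 FPKM, also without overlap (log2 change -0.34 ± 0.13; limma, adjusted p = 0.282). Gstm4, Gstk1, Gsto1 and Gstp2 overlapped between the groups, with log2 changes between -0.19 and 0.21. Gstp1 shared 57.7% of its 75-base windows with Gstp2, which was at only 3.34 to 5.39 FPKM.

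The microsomal enzymes are membrane proteins that conjugate and reduce lipid hydroperoxides. Mgst1 had the highest level of all 45 genes, at 3466 and 4398 FPKM in the controls and at 3647 and 2861 FPKM with 7KC, and the groups overlapped (log2 change -0.27 ± 0.24). Mgst3 was at 24.4 and 20.2 FPKM against 15.8 and 17.8 FPKM, with both 7KC libraries lower (log2 change -0.39 ± 0.14; limma, adjusted p = 0.247).

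None of the 5 Sult1 sulfotransferases passed the test. Without overlap, 3 of them were lower, beside 27.4% of all tested genes, and the others overlapped. The log2 changes of the 5 genes were all negative, with a median of -0.55. Sult1b1 turned to 0.03 on hepatocyte marker scaling, and Sult1e1 to 0.05 without control replicate 2. Sult1d1, which sulfates catecholamines and eicosanoids, was at 144 and 205 FPKM in the controls and at 132 and 96.0 FPKM with 7KC. Sult1c2 was at 3.06 and 4.08 FPKM and at 1.62 and 1.72 FPKM, or about 86, 93, 37 and 39 reads. Both genes were lower in each 7KC library, by log2 changes of -0.61 ± 0.24 (limma, adjusted p = 0.273) and -0.89 ± 0.18 (limma, adjusted p = 0.0949). Sult1a1, the phenol sulfotransferase, was at 334 and 209.6 FPKM in the controls and at 199 and 208 FPKM with 7KC. Its groups did not overlap, but the lower control library exceeded the higher 7KC library by little, and without control replicate 1 its log2 change was -0.04. Sult1b1, a thyroid hormone sulfotransferase, overlapped between the groups at 9.67 and 11.8 against 10.1 and 7.22 FPKM.

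The Sult2a family, which sulfates hydroxysteroids and bile acids, was represented by Sult2a8 and Sult2a7. Sult2a8 was at 174 and 298 FPKM in the controls and at 174 and 111 FPKM with 7KC. Control replicate 1 and 7KC replicate 1 were equal to this precision, and the difference came from replicate 2 of each group (log2 change -0.71 ± 0.33; limma, adjusted p = 0.339). Sult2a7 was at 0.594 and 0.631 FPKM against 1.17 and 0.843 FPKM, or about 8, 6, 12 and 9 reads, and was the only SULT gene with both 7KC libraries higher (log2 change 0.43 ± 0.20). Sult1e1, the estrogen sulfotransferase, was low and variable, at 0.886 and 2.68 FPKM against 1.45 and 0.550 FPKM, and Sult5a1 was at 2.58 to 6.05 FPKM with overlap.

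The 15 named genes below the minimum were Gsto2, Gstt4, Mgst2, Sult1c1, Sult2a1 to Sult2a6, Sult3a1, Ugt1a2, Ugt1a10, Ugt2a1 and Ugt2a2, and none exceeded 0.58 FPKM in a library. Sult1c1, Sult2a1, Sult2a3, Sult2a4, Sult2a5 and Sult2a6 were listed at 0 in all 4 libraries. No member above the minimum was listed at 0 in any library.

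The spread between the control libraries was as large as the group difference for many members. The control libraries differed from each other by more than the group means did for 19 of 45 members (42.2%, against 44.3% of all tested genes). A difference of at least 2-fold between them was found for 7 members (15.6%, against 2.16%), namely Gsta2, Gsta4, Gstt2, Gstt3, Sult1e1, Ugt1a9 and Ugt2b1. The median absolute log2 difference between the control libraries was 0.28 for the members and 0.16 for all tested genes, and between the 7KC libraries it was 0.24 and 0.17.

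Control replicate 2 was the lowest of the 4 libraries for 18 members (40%, against 29.2% of all tested genes), among them 12 of the 21 GST genes. It was the highest for 14 members (31.1%, against 28.4%), among them 5 of the 8 SULT genes. Gstt2, a theta-class enzyme, was at 36.7 FPKM in control replicate 1, 12.6 FPKM in control replicate 2 and 29.5 and 25.5 FPKM with 7KC. Gstt3 was at 25.7, 10.7, 16.5 and 20.2 FPKM in the same order, Gstt1 at 205, 125, 165 and 137 FPKM, and Ugt1a9 at 17.9, 6.17, 11.7 and 8.92 FPKM. In all of these both 7KC libraries lay between the 2 control libraries. Without control replicate 1, limma called Gsta1, Gsta2, Gsta4 and Gstt2 higher, with 441 of all tested genes called (3.59%). There the remaining control library stood alone and was assumed to vary like the 7KC libraries. Without control replicate 2, the log2 changes were 1.29 for Gsta1, -0.14 for Gsta2, -0.21 for Gsta4 and -0.41 for Gstt2.

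**Figure D4:**
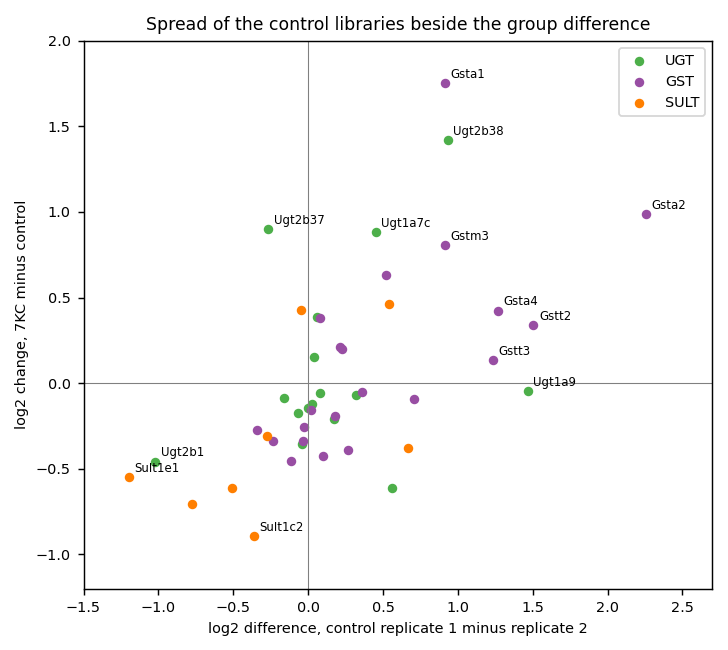
Log2 change of each of the 45 genes (vertical axis) against the log2 difference between control replicates 1 and 2 (horizontal axis), coloured by superfamily. Gsta2, Gsta4, Gstt2, Gstt3 and Ugt1a9 lie far to the right, where control replicate 2 was low, and Ugt2b1 and Sult1e1 far to the left, where it was high.

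Genes that supply the cofactors had no call in either direction. The lists of pathway genes are given by their count without overlap and their median log2 change, beside the shares of 25.1% and 27.4% and the median of -0.03 over all tested genes. Of 5 genes for the supply of UDP-glucuronic acid and the hydrolysis of glucuronides, 1 was higher and 1 lower without overlap (median 0.13). The lower one was Ugp2, which makes UDP-glucose, at 253 and 275 FPKM against 213 and 147 FPKM. Slc35d1, the transporter of UDP-glucuronic acid into the endoplasmic reticulum, was at 15.3 and 17.8 FPKM against 20.8 and 18.2 FPKM.

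Of 12 genes for glutathione synthesis and recycling, 3 were higher and 5 lower without overlap (median -0.24, or -0.025 without 7KC replicate 2). Mat1a, which makes S-adenosylmethionine and stands at the head of the path from methionine to cysteine, was at 1489 and 1367 FPKM in the controls and at 991 and 976 FPKM with 7KC. Chac2, which degrades glutathione, was at 20.9 and 20.9 FPKM against 16.3 and 15.2 FPKM. Both were lower without overlap, with log2 changes of -0.54 ± 0.15 (limma, adjusted p = 0.181) for Mat1a and -0.39 ± 0.11 (limma, adjusted p = 0.159) for Chac2. The other lower genes were Gclm, Cbs and Ahcy. The 3 higher genes were Gclc, Gsr and Oplah. Gclc was at 44.2 and 35.8 against 52.9 and 53.6 FPKM (log2 change 0.42 ± 0.14). Gsr was at 26.2 and 23.7 against 31.3 and 30.3 FPKM (log2 change 0.30 ± 0.11). Of 8 genes of mercapturate formation, the path that trims glutathione conjugates, 2 were higher and 3 lower (median 0.07). Lap3, a leucine aminopeptidase, was at 182 and 184 against 150.3 and 126 FPKM, and Acy1, an aminoacylase, at 30.1 and 30.6 against 25.1 and 20.6 FPKM. Of 9 genes for sulfate and PAPS supply, 1 was higher and 3 lower (median -0.02), and Bpnt1 and Suox had log2 changes of -0.21 each.

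The sensors and liver transcription factors had no call among 12 genes, with 2 higher and 6 lower without overlap (median -0.17). Nfe2l2, which encodes Nrf2, was at 31.3 and 30.1 FPKM in the controls and at 39.5 and 39.9 FPKM with 7KC, and Nr1i2, which encodes PXR, at 35.0 and 30.4 against 27.1 and 25.9 FPKM. All 4 indicator genes of Nrf2 were higher in both 7KC libraries (median 0.52), though Txnrd1 by little (log2 change 0.09 ± 0.10). Srxn1, which repairs oxidized peroxiredoxins, was at 17.7 and 15.9 against 27.9 and 25.3 FPKM, and the quinone reductase Nqo1 at 4.76 and 4.08 against 6.33 and 6.29 FPKM. Their log2 changes were 0.65 ± 0.12 and 0.47 ± 0.13 (limma, adjusted p = 0.0828 and 0.168). Of the 2 tested AhR indicator genes, both overlapped (median -0.27, or 0.13 without control replicate 2), with Cyp1a2 at 203 and 335 against 211 and 158 FPKM and Tiparp at 2.01 and 4.12 against 2.85 and 2.83 FPKM. Of the 3 tested for CAR and PXR, 2 were lower without overlap (median -0.22), with Cyp3a11 at 2557 and 2194 against 1875 and 1885 FPKM and Cyp2c55 at 3.26 and 3.44 against 2.82 and 2.79 FPKM.

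Of 6 efflux transporters for conjugates, 3 were higher and 1 lower without overlap (median 0.32, or 0.099 without control replicate 2). Abcc1 was at 1.17 and 0.665 against 1.48 and 2.56 FPKM, and Abcc4 at 0.843 and 0.842 against 1.09 and 1.43 FPKM. Abcc3 was also higher, at 49.2 and 43.7 against 52.0 and 59.8 FPKM. The lower one was Abcc2, which had the highest level of the 6. It was at 82.8 and 91.2 against 77.0 and 79.5 FPKM (log2 change -0.15 ± 0.11). Of 4 tested related enzymes outside the naming rule, 2 were higher without overlap (median 0.53, or 0.19 without 7KC replicate 2). These were the leukotriene genes of leukocytes, Alox5ap, at 9.12 and 7.19 against 16.4 and 24.7 FPKM (log2 change 1.26 ± 0.23; limma, adjusted p = 0.0796), and Ltc4s, at 1.24 and 0.961 against 1.74 and 2.89 FPKM. The related conjugating enzymes Ugt8a, Sult2b1, Sult4a1 and Sult6b1 were below the minimum. Of 10 male-biased liver genes, 3 were lower without overlap and none higher. Their median of -0.85 rested largely on control replicate 2, and was -0.28 without it. Cyp4a12a was at 45.6 and 38.7 against 22.2 and 29.0 FPKM, and Elovl3 at 29.7 and 76.9 against 22.7 and 17.3 FPKM. Of the 3 female-biased genes above the minimum, 1 was lower without overlap (median -0.60, or 0.33 without control replicate 1), namely Prlr, at 21.5 and 29.8 against 14.9 and 15.1 FPKM, while Cyp2a4 overlapped.

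Markers of hepatocytes and of leukocytes lay on opposite sides, although no gene of any list passed the test. All 13 tested hepatocyte markers had negative log2 changes (median -0.52, or -0.28 without 7KC replicate 2), 11 of them without overlap, and their summed level was 93006 and 80932 FPKM in the controls and 68333 and 51743 FPKM with 7KC. All 10 monocyte and macrophage markers were positive (median 1.42), 8 without overlap, with sums of 653 and 418 against 1197 and 1887 FPKM, and all 6 tested T and NK cell markers were higher without overlap (median 1.18), with sums of 11.6 to 17.5 against 37.5 to 40.8 FPKM. Medians of the other marker lists were 0.65 for resident Kupffer cells (0.21 without 7KC replicate 2), 0.51 for neutrophils and 0.39 for B cells (0.13 and -0.26 without control replicate 2), 0.19 for cholangiocytes, 0.01 for stellate cells and 0.00 for endothelial cells. No marker list had a member listed at 0 apart from Pax5 of the B cells. The part of cell composition in the values of Gsta3, Gstm7, Gstz1, the Sult1 genes and the indicator genes of Nrf2 was not tested.

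When each library was scaled by its hepatocyte markers, the median of all tested genes moved to 0.31, and the medians of the superfamilies were 0.26 for UGT, 0.28 for GST and -0.13 for SULT. This scaling adds the same amount to every log2 change, so the place of each superfamily relative to all genes could not change. On this scale limma called 9 members higher (Gsta1, Gsta2, Gstm1, Gstm2, Gstm3, Ugt1a7c, Ugt2b35, Ugt2b37 and Ugt2b38) and none lower. Among all tested genes, 1362 were called higher (11.1%) and 21 lower. Of the 9 members, Ugt1a7c and Ugt2b37 reached the minimum only through the 7KC group, so their calls support nothing. Rescaling each library to the same FPKM sum moved the median of all tested genes to 0.17, and limma then called Gsta1 and Ugt2b35 higher among 402 genes (3.27%).

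**Figure D5:**
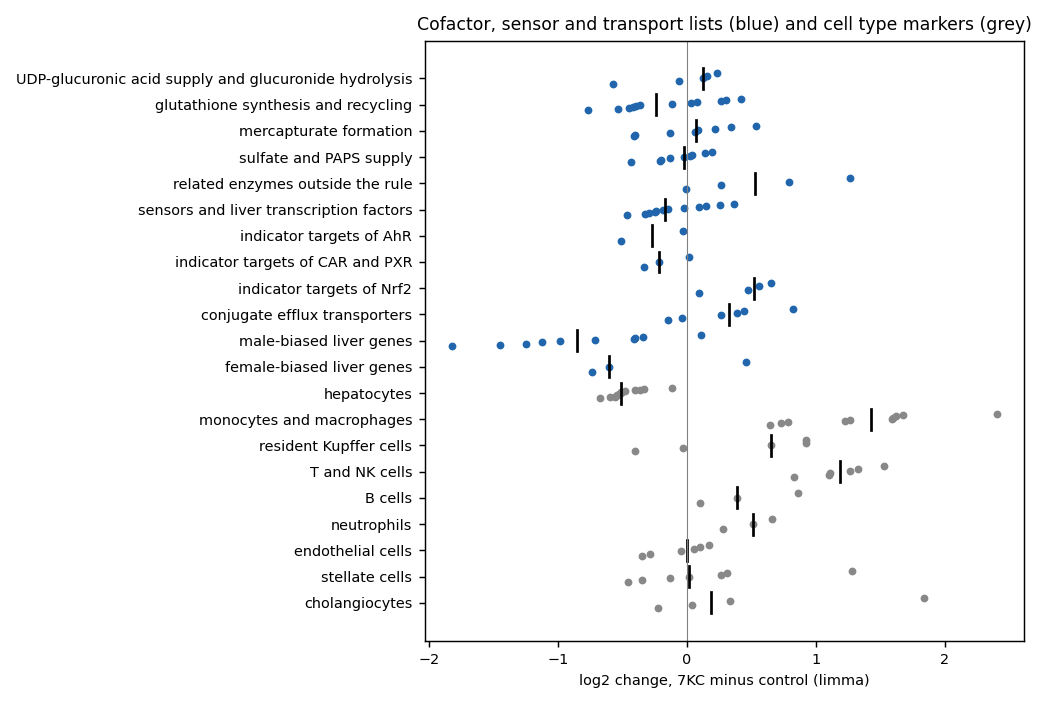
Log2 change (7KC minus control) of every tested gene of the cofactor, sensor, target and transport lists (blue) and of the cell type marker lists (grey), with a bar at each list's median. Hepatocyte markers lie below 0 (median -0.52), and macrophage and T and NK cell markers above it (medians 1.42 and 1.18). The cofactor lists have medians of 0.13 (UDP-glucuronic acid), -0.24 (glutathione) and -0.02 (sulfate and PAPS).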

How the data were processed

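Stranded messenger RNA libraries of mouse liver were sequenced by the authors as single-end reads. Per the labels, reads were processed with TopHat2 2.1.1, Bowtie2 2.2.8, SAMtools 0.1.18 and Cuffdiff 2.2.1 on mm10. The values, deposited by the authors, are FPKM, 1 per gene symbol and library. FPKM is relative to all mapped reads, so abundant genes move every other gene. The annotation and the handling of multi-mapped reads are not given in the sources used here, so close relatives may have exchanged reads. Since FPKM are not counts, count models were not applied. Depth was estimated from the steps of low values, of which 71.8% to 74.4% lay within 0.1 of a whole read (20% by chance), and reads given in the text are approximate.

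Genes whose mean was 0.5 FPKM or more were tested as log2(FPKM + 0.5), a scale that understates changes of low genes, with limma 3.58.1 in R 4.3.3 (lmFit, eBayes with trend, group as the only term) and Benjamini-Hochberg adjustment. Residuals had 2 and the prior 3.27 degrees of freedom. The procedure was tested on simulated data. Named members were those past the threshold, the 4 most abundant of each superfamily, the 3 largest non-overlapping changes in each direction per superfamily and members at 0, and for lists the 2 genes with the smallest p. The members and lists were chosen with earlier results of these data known. Alternatives were the pseudocount, the filter, 4 other scalings (median ratios, equal sums, quantiles, hepatocyte markers), no trend, a replicate block and leaving out each library. Replicate numbers were not shown to pair samples, since deviations of same-numbered libraries correlated at -0.141. Gene positions came from GENCODE M21 and upstream windows from RefSeq (GRCm38.p6).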

Additional observations from a re-analysis of the deposited data

How the results depend on the processing

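These limits apply to all results. With 2 libraries per group, little depth for genes near 1 FPKM, and FPKM tied to the composition of each library, the number of members called depended on the scaling. Members called higher numbered 0 with the reported settings, 2 on rescaling to the same sum (TPM), 9 on hepatocyte marker scaling, and 0 to 4 when 1 library was left out, the 4 coming without control replicate 1. No alternative called a member lower. The 9 on hepatocyte marker scaling include Ugt1a7c and Ugt2b37, which reached the minimum only through the 7KC group. In the replicate block, which pairs libraries by number, 0 members were called. A crossed replicate block, added after seeing the data because the check of the pairing was below -0.1, called 1 member higher. The share of all tested genes called in that setting is not given here, so this count has no background beside it.

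The median log2 change of the GST members was 0.15 on TPM scaling, 0.28 on hepatocyte marker scaling and -0.22 to 0.26 with 1 library left out. That of the UGT members was 0.13, 0.26 and -0.19 to 0.06, and that of the SULT members was -0.13 on hepatocyte marker scaling. Members higher without overlap numbered 17 on hepatocyte marker scaling (37.8%, against 58.6% of all tested genes) and 10 to 20 with 1 library left out (22.2% to 44.4%, against 33.7% to 37.3%), the 20 coming without control replicate 1. Members lower without overlap numbered 5 on TPM scaling (11.1%, against 7.86%), 3 on hepatocyte marker scaling (6.67%, against 2.10%) and 15 to 25 with 1 library left out (33.3% to 55.6%, against 37.5% to 41.9%), the 25 coming without control replicate 2 or without 7KC replicate 1. With 3 libraries, non-overlap is easier to reach, by construction.

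Of 333 values of the 24 named members under an alternative, 308 kept their direction and side of the threshold, 8 passed it in the same direction and 17 had the opposite sign. Settings of the filter, the trend and the replicate block cannot alter a log2 change, so part of the 308 was fixed by construction. The opposite signs on hepatocyte marker scaling were 0.00 for Gstp1, 0.06 for Mgst1, 0.03 for Sult1b1, 0.13 for Ugt1a1, 0.19 for Ugt2b36, 0.27 for Ugt2b5 and 0.25 for Ugt3a2. On TPM scaling they were 0.06, 0.14 and 0.12 for Ugt2b36, Ugt2b5 and Ugt3a2, and on quantile normalization 0.08 and 0.06 for Ugt2b5 and Ugt3a2. With 1 library left out, Ugt2b1 ran from -0.99 to 0.07, Ugt2b5 from -0.23 to 0.09 and Ugt3a2 from -0.20 to 0.03. The other 16 named members had the same sign under every alternative run. All of them except Sult2a8 were members without overlap between the groups. For such members, leaving out a library or changing the pseudocount could not turn the sign. Their stability was therefore partly fixed by the rule that named them. The cause of these shifts was not tested. List medians with 1 library left out, and counts of members at the minimum in both groups, were added after seeing the data.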
